A study of Rattus norvegicus with 61 samples.

Results

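Cerebellar gene expression was compared between 6 rats carrying medium implants and 6 sham rats. These 12 libraries were chosen from the 15 medium and sham cerebellar libraries, 31 cerebellar libraries and 61 libraries of the whole series. The choice used expression values. Medium 40 was left out for few granule cell transcripts, and medium 24 and sham 48 were left out for raised ribosomal protein transcripts. Every rat was a male Sprague-Dawley rat that received a polymer implant under the skin of the back on postnatal day 28 and carried it for 28 days. Medium implants held 5% of 4-OH-PCB52, a hydroxylated metabolite of the polychlorinated biphenyl PCB52, and sham implants held 0%. The kept medium rats bore the animal numbers 8, 10, 26, 41, 54 and 57, and the kept sham rats the numbers 1, 3, 17, 18, 32 and 34. The tissue was a punch of cerebellum, so neighbouring tissue and all cell types of the region contributed RNA. The labels describe 4 cohorts but assign no cohort to a single rat.

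The cerebellum is dominated by granule cells, small glutamatergic neurons that relay mossy fibre input to Purkinje cells, the inhibitory output neurons of the cortex. Bergmann glia wrap Purkinje cell synapses, and oligodendrocytes form the myelin of the underlying white matter. Hydroxylated polychlorinated biphenyls are known to bind thyroid hormone transport proteins, and some polychlorinated biphenyls act on ryanodine receptors, the calcium release channels of internal stores. Thyroid hormone guides cerebellar development. The cerebellum also carries a circadian clock: the transcription factors BMAL1 and CLOCK (or NPAS2) drive genes such as Per, Cry, Nr1d1, Dbp and Ciart, and the NR1D1 and NR1D2 proteins repress Bmal1.

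The libraries held transcripts of the labelled tissue. The Purkinje cell gene Car8 lay between 922 and 1848 CPM (read counts scaled to library size) in medium libraries and between 791 and 1424 CPM in sham libraries. Hoxb5, a hindbrain and spinal cord gene, reached at most 0.14 CPM in medium libraries and 0.12 CPM in sham libraries. Library totals ran from 5420458 to 9435159 reads over the 12 libraries, so 1 CPM stood for 5.42 to 9.44 reads before scaling.

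The 12 libraries were not alike. The first principal component held 62.2% of the variance and set 3 libraries apart: medium 8 at 64, medium 41 at 69.1 and sham 1 at 40.7, against -27.6 to -9.35 for the other 9. The same 3 libraries had high ribosomal protein transcripts. The mean log2 CPM of the ribosomal list was 8.49 in medium 8, 8.82 in medium 41 and 8.37 in sham 1, against 7.19 to 7.50 in the other medium libraries and 7.32 to 7.75 in the other sham libraries. The 31-library median was 7.45. Of the libraries left out, medium 24 stood at 9.92, medium 40 at 8.70 and sham 48 at 10.1, so medium 41 was kept although its ribosomal mean lay above that of medium 40. The mean log2 CPM of the granule cell list was 7.98 in medium 8, 8.33 in medium 41 and 8.58 in sham 1, against 8.80 to 8.97 in the other medium libraries and 8.89 to 8.95 in the other sham libraries, with 6.92 in medium 40, 7.95 in medium 24 and 7.20 in sham 48. Both lists served to choose the libraries and are given as description. Results are therefore shown for all 12 libraries and for the 9 without medium 8, medium 41 and sham 1, which leaves 4 medium and 5 sham libraries. That smaller set was chosen after the data were seen.

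**Figure D1:**
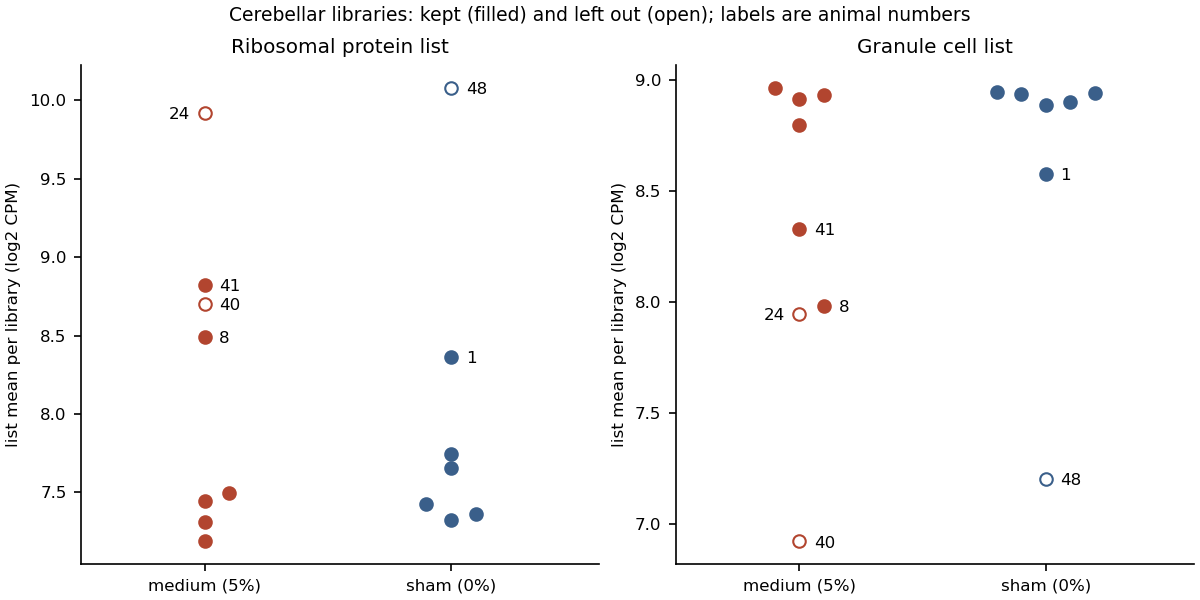
Mean log2 CPM of the ribosomal protein list (left) and the granule cell list (right) in the 8 medium and 7 sham cerebellar libraries; filled points were kept, open points left out, and numbers are animals. Medium 8, medium 41 and sham 1 were kept but lie above the other kept libraries on the ribosomal list and below them on the granule cell list.

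No gene differed between medium and sham cerebellum after correction for multiple tests. Of 11462 genes tested with edgeR's quasi-likelihood test, 0 were higher and 0 were lower at a Benjamini-Hochberg adjusted p under 0.05 (0% called in each direction), and the smallest adjusted p was 0.934. At an unadjusted p under 0.05, 120 genes were higher in medium libraries (1.05%) and 63 were lower (0.55%). Together these were 183 genes, fewer than the 573 that chance alone would give at that level. DESeq2 also called 0 genes, with 232 at an unadjusted p under 0.05. The limma-voom fit with sample weights called 2 genes, described below, and placed 566 at an unadjusted p under 0.05. In the 9 libraries without the 3 that stood apart, edgeR called 0 of 11486 genes, with 289 higher (2.52%) and 224 lower (1.95%) at an unadjusted p under 0.05. The 12-library and 9-library sets at that unadjusted level shared 103 genes, which is 56.3% of the first and 20.1% of the second. Nothing in the labels says how tissue was pooled or divided, so the p-values measure the spread between these libraries.

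Medium and sham libraries did not overlap for 10 genes, of which 3 were higher in medium (0.0262% of genes tested) and 7 were lower (0.0611%). The higher ones were Stxbp3, Oma1 and Plekha4, and the lower ones were Zfp111, Asic2, Ctdp1, Ralyl, Bmal1, Slc25a44 and Casq1. Of these, Plekha4, Asic2, Bmal1 and Casq1 were also among the 16 genes with the smallest p, 8 in each direction. The other 12 of the 16 overlapped between the groups. How many genes would separate in this way by chance was not tested, so non-overlap is given as a description.

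Casq1 had the smallest p of all genes. It encodes calsequestrin 1, the calcium-buffering protein of the sarcoplasmic reticulum in fast skeletal muscle. Casq1 (NCBI Gene 686019) stood at 4.06, 3.47, 4.00, 3.78, 3.58 and 4.31 CPM in medium rats 8, 10, 26, 41, 54 and 57, against 4.90, 6.60, 7.58, 6.23, 11.4 and 9.04 CPM in sham rats 1, 3, 17, 18, 32 and 34. The 6 medium libraries sat in a narrow band below every sham library. Its log2 fold change was -0.96 ± 0.21 (SE, n = 6 each; edgeR adjusted p = 0.934) and -1.07 in the 9 libraries. The left-out libraries did not keep that separation, with 7.44 CPM in medium 24, 1.48 CPM in medium 40 and 4.99 CPM in sham 48. In the cerebella with other implants, Casq1 averaged 5.45 ± 2.13 CPM with low implants (SD, n = 6) and 7.11 ± 2.76 CPM with high implants (SD, n = 5).

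Bmal1 and Asic2 were the other genes among the 16 that were lower in medium without overlap. Bmal1 (29657), the activating arm of the clock, lay at 39.97, 47.7 and 53.9 CPM as lowest, median and highest medium library, against 54.3, 59.6 and 68.8 CPM in sham libraries. The highest medium library therefore lay just under the lowest sham library. The log2 fold change of Bmal1 was -0.34 ± 0.10 (SE; edgeR adjusted p = 0.934), and -0.36 in the 9 libraries. Asic2, a subunit of acid-sensing sodium channels of neurons, lay at 41.1, 50.96 and 59.6 CPM in medium libraries, against 60.9, 65.0 and 74.1 CPM in sham libraries. Its log2 fold change was -0.34 ± 0.11 (SE; edgeR adjusted p = 0.934), and -0.26 in the 9 libraries.

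The other genes with the smallest p among those lower in medium had log2 fold changes between -1.41 and -0.68. Spata20, named for its expression in spermatogenesis, had 1.30, 1.79 and 3.17 CPM as lowest, median and highest medium library, against 2.65, 4.10 and 6.52 CPM in sham libraries. Sypl2, which encodes a membrane protein of muscle triads, had 0.81, 1.94 and 2.40 CPM in medium libraries, against 1.93, 3.49 and 4.99 CPM in sham libraries. Both genes overlapped between the groups and rested on low read numbers. Cd93, a surface glycoprotein of endothelial and myeloid cells, had 6.02, 10.0 and 12.0 CPM in medium libraries, against 10.9, 14.6 and 23.8 CPM in sham libraries. Otx2, a homeobox gene of the choroid plexus and of granule cells in posterior lobules, had 3.30, 8.49 and 22.6 CPM in medium libraries, against 12.96, 19.4 and 51.2 CPM in sham libraries. Medium 10 at 22.6 CPM lay within the sham range, and the highest sham libraries were sham 32 at 51.2 and sham 34 at 39.5 CPM. The choroid plexus marker Ttr, a thyroid hormone carrier, lay at 0.55 to 19.9 CPM in medium libraries against 0.30 to 4.05 CPM in sham libraries. Its highest values were those of medium 8 and medium 41, and its log2 fold change was 1.94 with 12 libraries and 0.38 with 9. Of 8 tested choroid plexus genes, a list that includes Otx2 itself, 6 had higher means in medium. The summed level of the 13 list genes measured ran from 102 to 282 CPM in medium libraries and from 119 to 144 CPM in sham libraries. Folr1, a defining gene of that tissue, was at most 2.75 CPM in medium libraries and 0.51 CPM in sham libraries. The part of choroid plexus tissue in the Otx2 values was not tested.

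Among genes higher in medium, Plekha4 had the smallest p, and of the 8 such genes with the smallest p it was the 1 without overlap. PLEKHA4 is a phosphoinositide-binding protein. Plekha4 stood at 2.03, 2.27, 1.66, 2.95, 2.76 and 1.67 CPM in medium rats 8, 10, 26, 41, 54 and 57, against 1.43, 0.87, 1.34, 1.25, 1.04 and 1.09 CPM in sham rats 1, 3, 17, 18, 32 and 34. The gap between the groups was small beside the spread of the medium libraries. Its log2 fold change was 0.93 ± 0.23 (SE; edgeR adjusted p = 0.934), and 0.91 in the 9 libraries. The left-out sham 48 had 5.11 CPM, above every medium library kept.

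Plpp4, which encodes a phospholipid phosphatase, had 6.25, 8.94 and 15.6 CPM as lowest, median and highest medium library, against 2.03, 3.04 and 10.5 CPM in sham libraries. The highest values belonged to medium 41 at 15.6, medium 8 at 13.5 and sham 1 at 10.5 CPM, the 3 libraries that stood apart. Without them the groups no longer overlapped, with 6.25 to 8.95 CPM in 4 medium libraries against 2.03 to 4.45 CPM in 5 sham libraries. Groups of 4 and 5 separate by chance more easily than groups of 6. The share of all genes that separate in these 9 libraries is not given here. The log2 fold change of Plpp4 was 1.25 ± 0.39 with 12 libraries (SE; edgeR adjusted p = 0.934) and 1.45 ± 0.23 with 9 (edgeR adjusted p = 0.0968). limma-voom with sample weights called it, at a log2 fold change of 1.55 and an adjusted p of 0.0284. In the left-out libraries Plpp4 stood at 21.3 CPM in medium 24, 7.02 CPM in medium 40 and 20.7 CPM in sham 48. With high implants it averaged 4.10 ± 2.85 CPM (SD, n = 5).

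The other gene that limma-voom called was the long noncoding RNA gene Lnc012, at a log2 fold change of 0.61 and an adjusted p of 0.0315; edgeR gave 0.45 ± 0.15 (SE; adjusted p = 0.934). In the 9 libraries Lnc012 lay between 71.1 and 77.3 CPM in 4 medium libraries, against 38.1 to 54.5 CPM in 5 sham libraries. Medium 8 at 42.9 CPM and medium 41 at 60.9 CPM fell below the other medium libraries, while sham 1 had 60.1 CPM. In the 9-library fit its log2 fold change was 0.67 ± 0.10 (SE; edgeR adjusted p = 0.0917), the smallest adjusted p of that fit. Lnc012 and Tead1 were chosen after their values were seen, and the share of all genes that separate in the 9 libraries is not given here. Tead1, a transcription factor gene of the Hippo pathway, lay between 10.9 and 12.9 CPM in those medium libraries against 5.80 to 7.47 CPM in those sham libraries, but at 3.11 CPM in medium 8, 1.42 CPM in medium 41 and 3.67 CPM in sham 1.

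The remaining 6 of the 8 genes higher in medium all overlapped between the groups. Tlr7, an endosomal receptor for single-stranded RNA, had 1.63, 2.81 and 3.46 CPM as lowest, median and highest medium library, against 1.09, 1.49 and 2.35 CPM in sham libraries (log2 fold change 0.76 ± 0.24, SE). Il4r, the interleukin 4 receptor subunit, had 12.3, 13.7 and 16.3 CPM in medium libraries, against 6.84, 10.5 and 12.6 CPM in sham libraries (0.48 ± 0.15). Parvg, an actin-binding adhesion protein of blood cells, had 1.24, 1.72 and 3.06 CPM in medium libraries, against 0.44, 0.89 and 1.49 CPM in sham libraries (1.06 ± 0.31). Their lowest medium library lay within the sham range. Slfn2, a Schlafen family gene of lymphocytes, had 5.56, 6.92 and 8.97 CPM in medium libraries, against 3.12, 5.05 and 5.60 CPM in sham libraries (0.63 ± 0.19). Kctd11, which restrains Hedgehog signalling in granule cell precursors, had 3.47, 4.64 and 5.26 CPM in medium libraries, against 2.23, 2.90 and 4.08 CPM in sham libraries (0.60 ± 0.19). Ankrd55, an ankyrin repeat gene, had 2.44, 3.597 and 7.29 CPM in medium libraries, against 1.99, 2.25 and 2.83 CPM in sham libraries, and its log2 fold change of 0.88 ± 0.26 dropped to 0.51 in the 9 libraries. Medium 8 and medium 41 held its highest values.

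**Figure D2:**
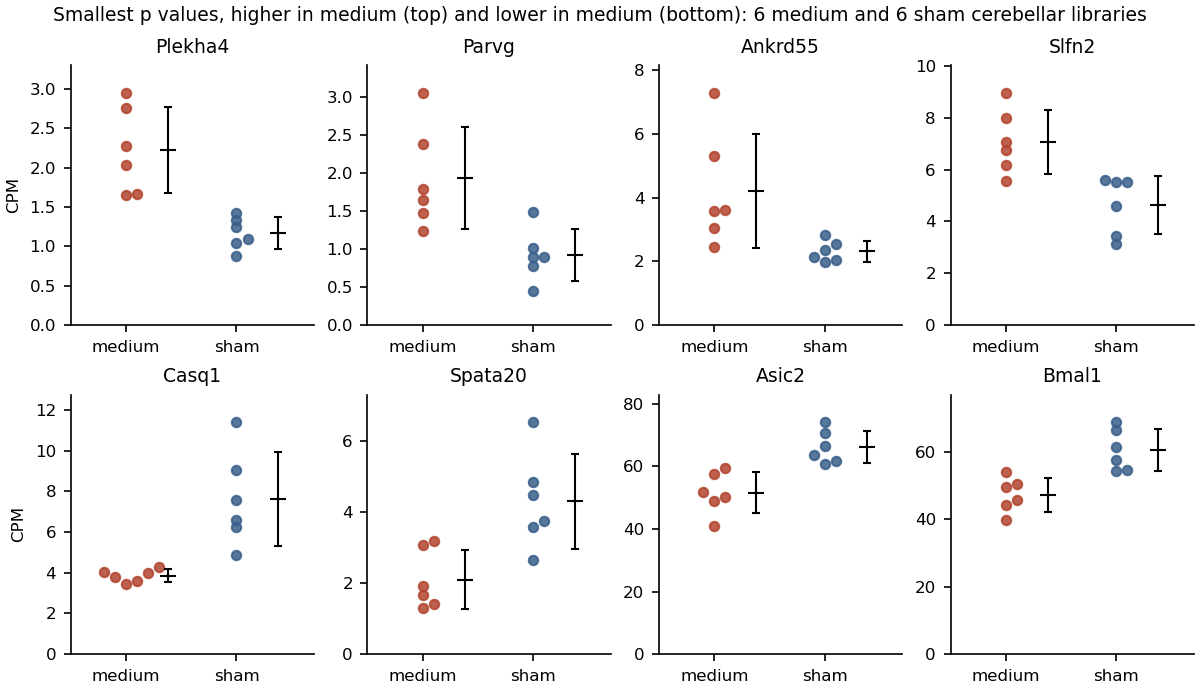
CPM per library for the 4 genes with the smallest p in each direction, medium left and sham right in each panel, with the mean and SD of 6 libraries beside the points. Casq1, Asic2, Bmal1 and Plekha4 separate the groups without overlap, and no gene shown passed the adjusted p of 0.05.

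Animal numbers were split into 4 runs of 15, which may or may not be the cohorts. Run 4 held 2 medium libraries and 0 sham libraries of those kept, so only 3 runs allowed a comparison. Run 1 held 2 medium and 2 sham libraries, among them medium 8 and sham 1. Runs 2 and 3 each held 1 medium and 2 sham libraries. The medium library of run 3 was medium 41, so its run 3 values rest on 1 library that stood apart. Since the 16 genes were chosen in these same libraries, their values within runs are a description. For Casq1 the mean log2 CPM of medium minus sham was -0.57 in run 1, -0.74 in run 2 and -1.37 in run 3. For Bmal1 it was -0.25, -0.18 and -0.36 in the same order, and for Plekha4 it was 0.80, 0.30 and 1.28. An edgeR fit with the run as a term called 0 genes, with 288 at an unadjusted p under 0.05. With all 15 libraries several of these log2 fold changes were smaller, at 0.54 for Plekha4, 0.73 for Plpp4, 0.27 for Ankrd55 and 0.20 for Slfn2.

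Most cell type and pathway lists had medians nearer 0 without the 3 libraries that stood apart. Over all genes tested the median log2 fold change was 0.03, with 54.8% of genes higher in medium libraries, and in the 9 libraries it was 0.00, with 49.2% higher. No member of any list passed the adjusted p of 0.05. In bulk tissue, fewer cells of a type and less RNA per cell cannot be told apart.

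Myelin transcripts showed this most. Of 24 genes of oligodendrocytes and myelin, 23 had a higher mean in medium, with a median log2 fold change of 0.59 that came to 0.05 in the 9 libraries. Mbp, myelin basic protein, stood at 15456, 4020, 2480, 3548, 3592 and 1971 CPM in medium rats 8, 10, 26, 41, 54 and 57, against 5747, 3335, 3918, 4330, 1945 and 2197 CPM in sham rats 1, 3, 17, 18, 32 and 34. Medium 8 alone lay far above the others. Spp1, osteopontin, which large neurons of the deep nuclei and brainstem express, stood at 264 CPM in medium 8, against 1.53 to 3.21 CPM in the other medium libraries and 1.602 to 6.07 CPM in sham libraries. The Spp1 log2 fold change was 3.71 with medium 8 and -0.60 without it. Of 7 tested genes of the deep nuclei and brainstem, 7 were higher, with a median of 0.51, and in the 9 libraries 6 of 8 were higher, with a median of 0.10.

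Microglial transcripts were higher in medium for 19 of 19 genes, with a median log2 fold change of 0.58. In the 9 libraries 15 of 19 were higher, with a median of 0.16. The fractalkine receptor gene Cx3cr1 had 6.50, 8.49 and 22.3 CPM as lowest, median and highest medium library, against 3.12, 5.74 and 11.7 CPM in sham libraries, and its log2 fold change was 0.74 ± 0.37 (SE) with 12 libraries and 0.57 with 9. P2ry12, a purinergic receptor of resting microglia, had 4.03, 5.44 and 10.0 CPM in medium libraries, against 1.25, 4.46 and 6.22 CPM in sham libraries. The highest library for both genes was medium 8, and the groups overlapped. The mean of the microglial list was 4.36 log2 CPM in medium 8 and 3.76 in medium 41, against 2.98 to 3.20 in the other medium libraries, 3.56 in sham 1 and 2.67 to 3.08 in the other sham libraries.

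The median of interferon and inflammation genes was larger without the 3 libraries. With 12 libraries 17 of 18 had a higher mean in medium and the median log2 fold change was 0.26. With 9 libraries 15 of 18 were higher and the median was 0.38. Ifit3, an interferon-induced gene, had 1.47, 3.05 and 4.06 CPM as lowest, median and highest medium library, against 1.09, 1.63 and 4.08 CPM in sham libraries, a log2 fold change of 0.48 ± 0.34 (SE). Ifit2, of the same family, had 4.25, 5.06 and 6.45 CPM in medium libraries, against 2.50, 4.10 and 5.78 CPM in sham libraries. Both overlapped between the groups, and sham 1 was the highest sham library for Ifit3. Il1r1, the interleukin 1 receptor, was the member with a lower mean in medium, at 1.79, 2.18 and 4.97 CPM in medium libraries against 2.85, 4.43 and 6.55 CPM in sham libraries.

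Ribosomal and mitochondrial transcripts had higher means in medium with 12 libraries and lower ones with 9. All 77 ribosomal protein genes were higher with 12 libraries, with a median log2 fold change of 0.26, and 1 of 77 was higher with 9 libraries, with a median of -0.12. This list chose the libraries and is no result. Nuclear genes of the respiratory chain went along, with 71 of 71 higher and a median of 0.27 in 12 libraries, against 15 of 71 higher and a median of -0.09 in 9 libraries. Ndufa1, a complex I subunit, stood at 192 CPM in medium 8, 259 CPM in medium 41 and 158 CPM in sham 1, against 62.4 to 91.3 CPM in the other medium libraries and 58.3 to 104 CPM in the other sham libraries. Genes of the mitochondrial ribosome (46 of 47 higher, median 0.20) and of NRF2 and antioxidant defence (21 of 23 higher, median 0.23) had medians of -0.04 and -0.03 in the 9 libraries.

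Ryr2 and Gria2 were low in the same 3 libraries. Ryr2, the main ryanodine receptor gene of neurons, stood at 82.1 CPM in medium 8, 57.2 CPM in medium 41 and 103 CPM in sham 1, against 483 to 647 CPM in the other medium libraries and 447 to 563 CPM in the other sham libraries. Its log2 fold change was -0.26 ± 0.56 (SE) with 12 libraries and 0.03 with 9. Gria2, an AMPA receptor subunit, stood at 134 CPM in medium 8, 133 CPM in medium 41 and 188 CPM in sham 1, against 444 to 515 CPM in the other medium libraries and 435 to 529 CPM in the other sham libraries. Of 24 glutamate receptor genes 18 had lower means in medium, with a median of -0.11 that came to 0.02 in the 9 libraries. Granule cell genes gave 16 of 20 lower and a median of -0.15, which came to 0.00. The calcium store list, which holds the ryanodine and inositol trisphosphate receptors, had a median of -0.01 with 12 libraries and 0.06 with 9.

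Thyroid hormone genes showed no shared shift: of 17 tested, 9 had higher and 8 lower means in medium, with a median log2 fold change of 0.04, and -0.02 in the 9 libraries. Dio2, the deiodinase that activates thyroid hormone in glia, lay between 33.7 and 52.8 CPM in medium libraries and between 38.1 and 46.8 CPM in sham libraries. Xenobiotic receptor and conjugation genes had a median of 0.15, with 13 of 16 higher, and of 0.01 in the 9 libraries. Arnt, the partner of the dioxin receptor, had a log2 fold change of -0.19 ± 0.24 (SE) with 12 libraries and 0.01 with 9.

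Vascular and meningeal lists had lower medians without the 3 libraries. Fibroblast genes of the meninges and vessels had 14 of 19 higher and a median log2 fold change of 0.18 in 12 libraries, and 17 of 19 lower and a median of -0.36 in 9. The collagen gene Col1a1 had 9.44, 32.8 and 64.2 CPM as lowest, median and highest medium library, against 27.8, 51.4 and 104 CPM in sham libraries. The mean of the list reached 6.30 log2 CPM in medium 41. Endothelial genes had 9 of 19 lower with a median of 0.01 in 12 libraries, and 16 of 19 lower with a median of -0.09 in 9. Pecam1, an endothelial adhesion molecule, had 5.66, 7.76 and 10.4 CPM in medium libraries, against 9.20, 10.5 and 12.96 CPM in sham libraries, with a log2 fold change of -0.45 ± 0.17 (SE) in 12 libraries and -0.58 in 9. The highest medium library lay within the sham range.

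**Figure D3:**
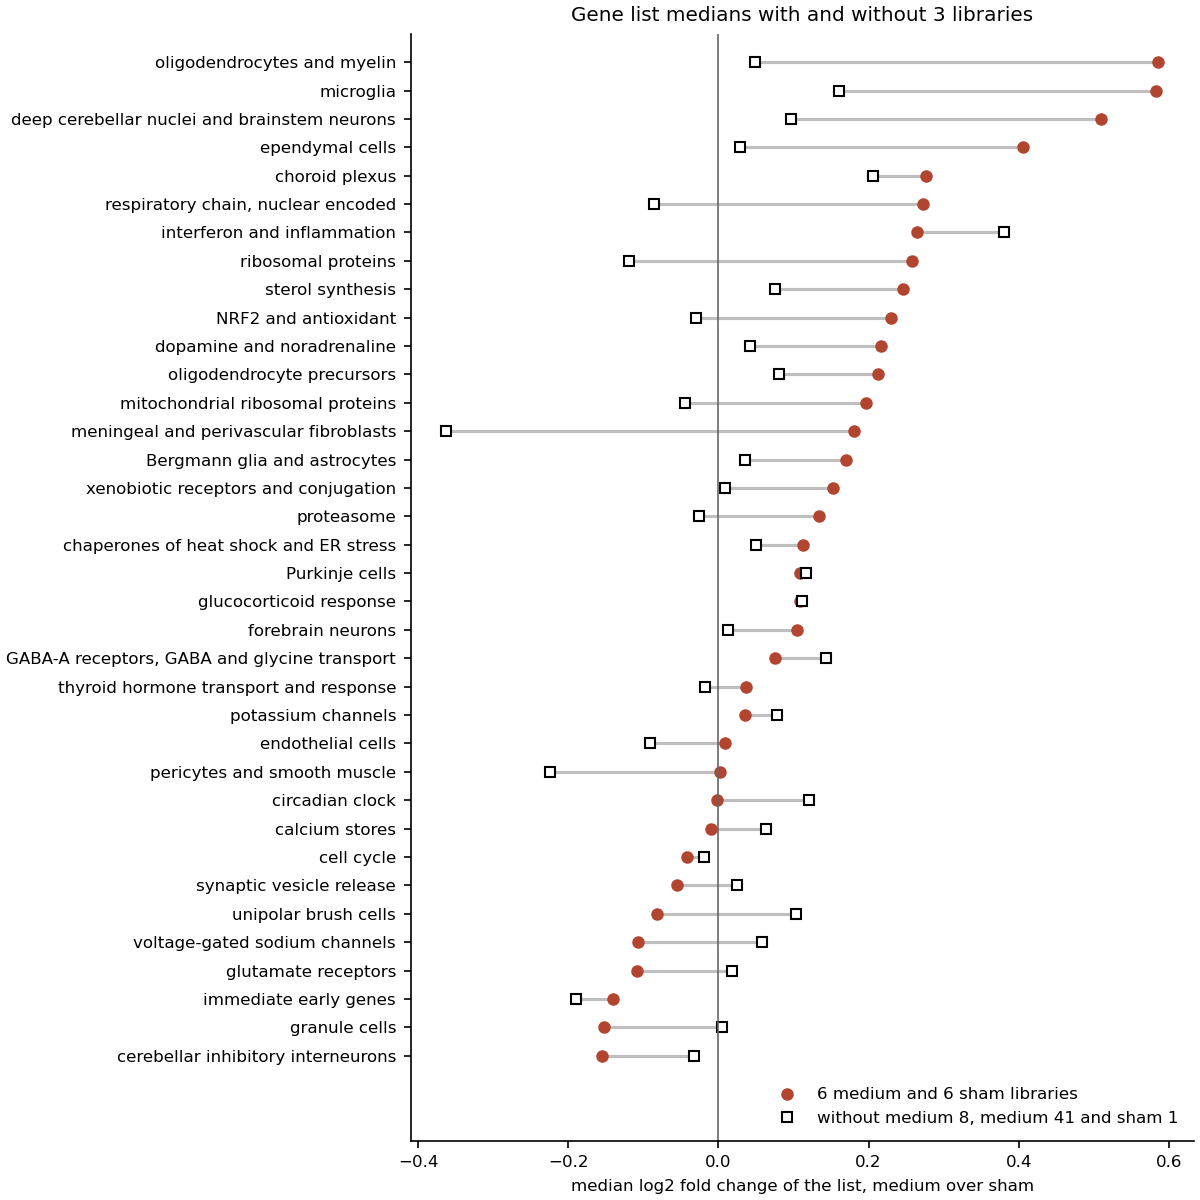
Median log2 fold change, medium over sham, of each gene list with all 12 libraries (filled circles) and with 9 libraries, without medium 8, medium 41 and sham 1 (open squares). Most medians lie closer to 0 with 9 libraries, the fibroblast list crosses to -0.36, and the interferon list goes to 0.38.

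Clock genes were followed further because Bmal1 was among the non-overlapping genes. Apart from Bmal1, Per1 and Per2 the members named here were chosen after their values were seen. The time of day at which each rat was sampled entered no fit, so its part in the clock values was not tested. Of 16 clock genes tested, 8 had higher and 8 lower means in medium, with a median log2 fold change of 0.00, and 2 higher and 1 lower at an unadjusted p under 0.05, beside 1.05% and 0.55% of all genes. In the 9 libraries the median was 0.12, with 10 higher and 6 lower, and 6 of the 16 had an unadjusted p under 0.05, beside 2.52% of all genes higher and 1.95% lower at that level. The upstream sequences of Bmal1, Dbp and Ciart are shown because these are the 3 members at that level in the 12 libraries. Each is the stretch from 250 bases before to 50 bases after the annotated start, from RefSeq on the GRCr8 build. Capitals mark matches to the E-box CACGTG bound by BMAL1 with CLOCK, the D-box TTATGTAA bound by DBP and its relatives, or the core AGGTCA bound by NR1D and ROR proteins, searched on both strands.
Bmal1, chr1:176766078-176766377, plus strand: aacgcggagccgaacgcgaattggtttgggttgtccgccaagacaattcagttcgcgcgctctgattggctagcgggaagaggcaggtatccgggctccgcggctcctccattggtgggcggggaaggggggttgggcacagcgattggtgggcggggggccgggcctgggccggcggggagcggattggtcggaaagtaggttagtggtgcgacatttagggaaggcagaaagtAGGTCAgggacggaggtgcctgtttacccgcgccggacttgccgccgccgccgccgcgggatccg
Dbp, chr1:105312006-105312305, plus strand: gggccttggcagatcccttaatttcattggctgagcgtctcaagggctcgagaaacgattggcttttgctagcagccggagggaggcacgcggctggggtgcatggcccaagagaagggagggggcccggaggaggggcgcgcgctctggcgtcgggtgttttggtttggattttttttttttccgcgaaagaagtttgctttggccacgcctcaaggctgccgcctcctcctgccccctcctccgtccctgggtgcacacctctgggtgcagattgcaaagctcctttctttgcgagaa
Ciart, chr2:186112197-186112496, minus strand: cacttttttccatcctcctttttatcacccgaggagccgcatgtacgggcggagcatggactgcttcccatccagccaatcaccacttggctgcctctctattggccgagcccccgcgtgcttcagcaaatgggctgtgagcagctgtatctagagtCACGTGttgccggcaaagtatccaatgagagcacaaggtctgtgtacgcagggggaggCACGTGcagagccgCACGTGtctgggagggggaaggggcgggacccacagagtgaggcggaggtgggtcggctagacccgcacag
The Ciart window holds 3 E-boxes, the Bmal1 window holds 1 AGGTCA, and none of the 3 motifs is spelled in the Dbp window. Among 33469 rat windows of the same length, 6.42% hold CACGTG, 0.893% hold TTATGTAA and 16.2% hold AGGTCA. Of the 16 clock genes, 15 had a window in the RefSeq table, and 7 of these hold at least 1 of the motifs. A gene with several windows, such as Nr1d1, counts when any of them holds a motif. The share of all rat windows with any of the motifs is not given here, so that count has no background beside it.

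Dbp, a clock-driven transcription factor, stood at 214, 168, 168, 241, 185 and 144 CPM in the cerebellum of medium rats 8, 10, 26, 41, 54 and 57, against 162, 131, 150, 167, 112 and 123 CPM in sham rats 1, 3, 17, 18, 32 and 34. The medium libraries were higher on average, but medium 57 lay within the sham range. The log2 fold change of Dbp was 0.43 ± 0.14 (SE; edgeR adjusted p = 0.934) with 12 libraries and 0.31 with 9. Medium 8 and medium 41, 2 of the libraries that stood apart, had its highest values, and the left-out libraries were higher still, at 354 CPM in medium 24, 286 CPM in medium 40 and 364 CPM in sham 48. With the ribosomal list mean as a covariate the Dbp log2 fold change was 0.36 and did not pass the adjusted p of 0.05 in edgeR. Ciart, a repressor of BMAL1 and CLOCK, had 15.6, 18.3 and 21.9 CPM as lowest, median and highest medium library, against 9.48, 14.5 and 18.2 CPM in sham libraries. Its log2 fold change was 0.35 ± 0.15 (SE; edgeR adjusted p = 0.934), and 0.36 in the 9 libraries.

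Npas2, the CLOCK homologue, had 5.20, 10.2 and 12.9 CPM in medium libraries, against 7.75, 13.02 and 17.4 CPM in sham libraries, a log2 fold change of -0.41 ± 0.25 (SE). With all 15 libraries the value was 0.48, of the opposite sign. Clock itself stood at 51.4 CPM in medium 8, 48.5 CPM in medium 41 and 66.01 CPM in sham 1, against 127 to 163 CPM in the other medium libraries and 145 to 169 CPM in the other sham libraries. The nuclear receptors Nr1d1 and Nr1d2, which repress Bmal1, had log2 fold changes of -0.01 ± 0.10 and 0.08 ± 0.19 (SE), and the values of Nr1d1 ran from 209 to 278 CPM in medium libraries and from 216 to 264 CPM in sham libraries.

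Per2 and Per1 varied widely within both groups. Per2 stood at 30.5, 40.5, 41.9, 31.02, 123 and 133 CPM in medium rats 8, 10, 26, 41, 54 and 57, against 32.9, 78.3, 45.2, 81.9, 52.3 and 103 CPM in sham rats 1, 3, 17, 18, 32 and 34. The 2 medium rats of run 4, which has no kept sham rat, had the highest values. For Per1 the highest library was sham 34, at 155 CPM. Over 12 libraries the log2 fold change of Per2 was 0.04 ± 0.42 (SE), and with the run as a term it was -0.80, which did not pass the adjusted p of 0.05 in edgeR. Medium minus sham was -0.53, -0.53 and -1.24 log2 CPM in runs 1, 2 and 3 for Per2, and -0.56, -0.25 and -0.42 for Cry1, a repressor of the same loop. Per1 gave -0.66, -0.01 and -1.15, and Per3 gave 0.00, 0.08 and -1.86. Dbp was higher in the same 3 runs, by 0.38, 0.09 and 1.04, and Ciart by 0.27, 0.35 and 0.37. Runs 2 and 3 each held 1 medium library, and that of run 3 was medium 41.

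The striatum of the same 12 rats was sequenced as well and took no part in the choice of libraries. There, edgeR called 0 of 11964 genes (0% in each direction), with 503 higher (4.2%) and 455 lower (3.8%) at an unadjusted p under 0.05, and DESeq2 called 2, Dlk1 and Wfs1. Of these striatal libraries 3 stood apart. The library labelled striatum of sham 17 had 8.36 CPM of the dopamine receptor gene Drd1, against 315 to 518 CPM in medium and 268 to 472 CPM in the other sham striata, and 7.97 CPM of the adenosine receptor gene Adora2a, against 592 to 1051 CPM in medium and 494 to 647 CPM in the other sham striata, so these defining markers of the striatum were near 0 there. Its Ttr was 11932 CPM, against 1.42 to 33.5 CPM in medium and 2.81 to 37.4 CPM in the other sham striata. It also had the lowest Bmal1, Dbp and Ciart of the sham rats. The ribosomal protein gene Rpl3 stood at 898 CPM in the striatum of medium 8 and 946 CPM in that of medium 41, against 394 to 530 CPM in the other medium striata and 387 to 483 CPM in sham striata. All 77 ribosomal protein genes had higher means in medium striata, with a median log2 fold change of 0.59. Without rats 8, 41 and 17, a set chosen after the data were seen that leaves 4 medium and 5 sham striata, 51 of 77 were higher, with a median of 0.02, and edgeR called 0 of 11879 genes, with 679 at an unadjusted p under 0.05. Dbp had 379, 428 and 618 CPM as lowest, median and highest medium striatum, against 141, 301 and 383 CPM in sham striata, a log2 fold change of 0.69 ± 0.21 (SE; edgeR adjusted p = 0.589) that was 0.55 without rat 17 and 0.35 without rats 8, 41 and 17. Medium 8 and medium 41 held the highest striatal Dbp, at 544 and 618 CPM. Ciart had 20.0, 22.1 and 25.2 CPM in medium striata, against 7.29, 12.5 and 20.2 CPM in sham striata, a log2 fold change of 0.79 ± 0.19 (SE; edgeR adjusted p = 0.589) that was 0.67 without rat 17 and 0.72 without rats 8, 41 and 17. For both genes 1 sham striatum, that of rat 18, reached the lowest medium striatum. Bmal1 did not separate in the striatum, with 30.9 to 57.6 CPM in medium rats and 27.4 to 53.6 CPM in sham rats, a log2 fold change of -0.08 ± 0.18 (SE), and of -0.24 without rats 8, 41 and 17. Per2 in the striatum was again highest in medium rats 54 and 57, at 110 and 105 CPM.

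**Figure D4:**
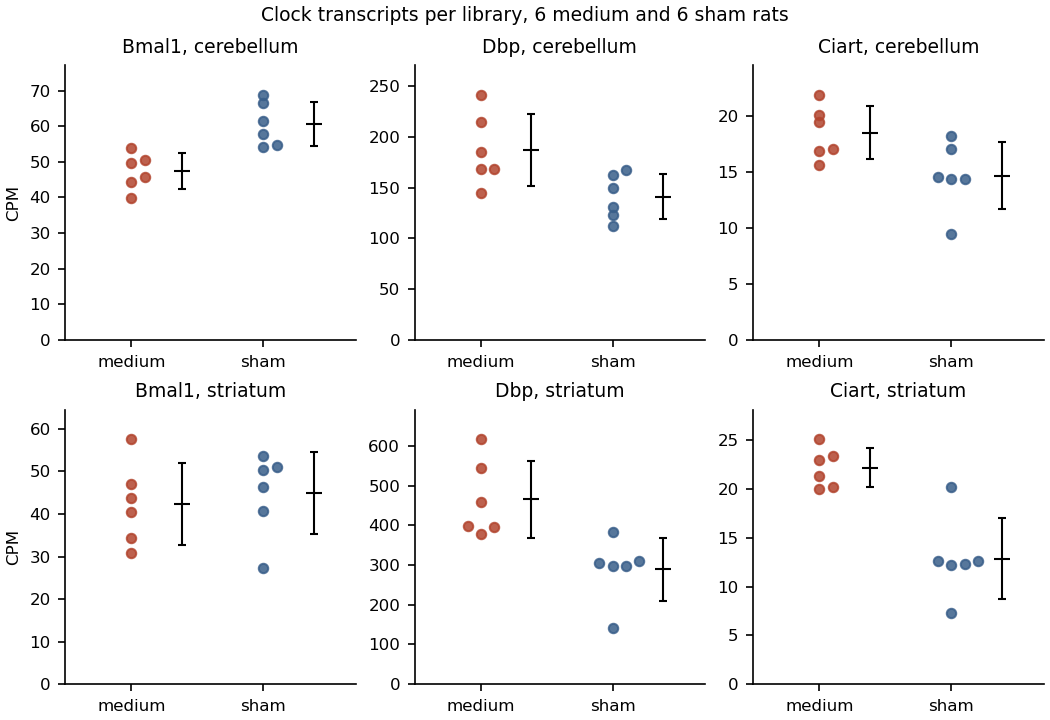
CPM per library of Bmal1, Dbp and Ciart in cerebellum (top) and striatum (bottom) of the same 6 medium and 6 sham rats, medium left, with mean and SD beside the points. Bmal1 does not overlap between the groups in the cerebellum and does in the striatum, and Dbp and Ciart overlap by 1 sham rat in the striatum. No difference between the regions passed the test.

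**Figure D5:**
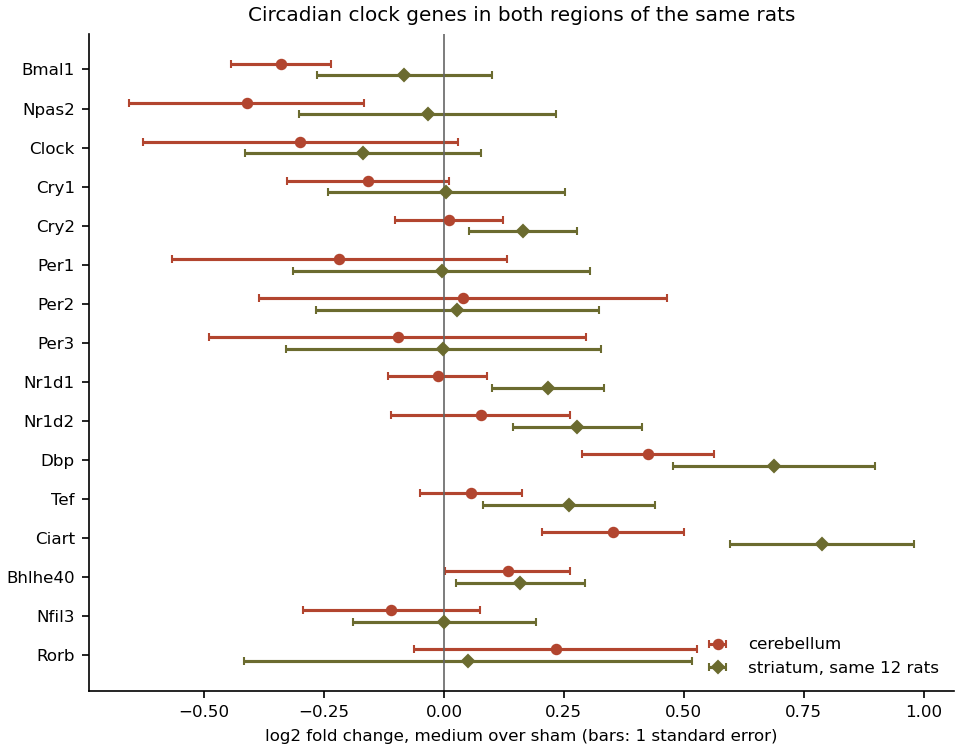
Log2 fold change, medium over sham, with 1 SE, of 16 clock genes in the cerebellum (circles) and striatum (diamonds) of the same 12 rats. Dbp and Ciart lie above 0 in both regions, Bmal1 lies at -0.34 in cerebellum and -0.08 in striatum, and none passed the adjusted p of 0.05.

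The difference between the regions was tested with each rat as a block. For 0 of 12202 genes did the medium versus sham difference differ between cerebellum and striatum (0% in each direction), with 375 more positive in cerebellum (3.07%) and 158 more negative (1.29%) at an unadjusted p under 0.05. For Bmal1 the interaction, cerebellum minus striatum, was -0.26, for Dbp it was -0.30, for Ciart -0.47 and for Casq1 -1.04, all with an edgeR adjusted p above 0.05. Without rats 1, 8, 17 and 41 the interaction called 0 of 12155 genes, with 440 at an unadjusted p under 0.05, and was -0.10 for Bmal1, 0.00 for Dbp and -0.35 for Ciart. Among the genes with the smallest interaction p, Plcxd3, a phospholipase C-like gene, had 13.5, 34.6 and 51.8 CPM as lowest, median and highest medium cerebellum, against 19.5, 27.9 and 42.6 CPM in sham cerebella. In the striatum it had 1.65, 5.98 and 11.8 CPM in medium rats, against 7.00, 12.6 and 17.3 CPM in sham rats, and the interaction was 1.25. Htr7 and Tp73 gave interactions of 5.21 and 4.27, where cerebellar levels were at most 1.91 and 0.36 CPM in medium libraries and the striatal library of sham 17 held 24.7 CPM of each. On the negative side Hddc2 gave -0.65, Aph1b, a gamma-secretase subunit, gave -0.54 and Il1r1 gave -1.11.

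Low implants (1%) and high implants (10%) were set beside medium for the leading genes, and all 3 comparisons share the sham libraries. Low and high libraries over 1 log2 unit from the median of the ribosomal or granule cell list were left out. That cut was not applied to medium 8 and medium 41, which lay 1.04 and 1.38 above the ribosomal median and were kept. Bmal1 averaged 54.8 ± 5.0 CPM with low implants (SD, n = 6) and 49.6 ± 2.96 CPM with high implants (SD, n = 5), beside 47.3 ± 5.01 CPM with medium implants and 60.6 ± 6.10 CPM in sham rats (SD, n = 6 each). The log2 fold changes against sham were -0.13 for low, -0.34 for medium and -0.27 for high. For Dbp they were 0.04, 0.43 and 0.25, and for Casq1 they were -0.46, -0.96 and -0.09. Plekha4 gave 0.25, 0.93 and 0.48. For Dbp, Casq1 and Plekha4, as for Bmal1, the value furthest from 0 was that of medium implants, the group in which the genes were chosen. In the 9 libraries the medium values were 0.31 for Dbp, -0.36 for Bmal1, -1.07 for Casq1 and 0.91 for Plekha4.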

How the data were processed

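The authors deposited raw read counts per gene, listed by NCBI Gene ID, for rat cerebellum and striatum. FastQC, HISAT2 and the rn6 build appear in the submitters' processing notes, without versions; counting tool and strand setting were not given in those sources. The labels name poly(A) capture or ribosomal RNA removal for enrichment, without saying which. The cerebellar table holds 14129 genes, none with under 10 reads in total, and 14063 matched a RefSeq symbol. The 12 libraries had a median of 6732164.5 reads. The gene members, libraries and lists were chosen with earlier results of these data known.

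Counts were tested with edgeR 4.0.16 in R 4.3.3 (TMM scaling, filterByExpr, robust quasi-likelihood fit, Benjamini-Hochberg adjusted p under 0.05). Levels are CPM with TMM factors over all libraries of a region, and list means use log2 CPM (prior count 2). The fit was tested on simulated data with 6 and 6 libraries. It recovered 8 of 67 genes changed 1.5-fold, 40 of 67 changed 2-fold and 61 of 66 changed 4-fold, and 6 of 115 calls were false. Smaller changes would thus mostly be missed. The simulated libraries did not carry the shared difference that set 3 real libraries apart. Genes named are the 8 with the smallest p in each direction, the first 2 tested members of each of 36 lists, of 37 written, where they bear on a list described, and 3 per direction of the interaction; a few of these are not reported here. Cerebellum and striatum were paired because both came from the same rat, by animal number. Alternatives were RLE factors, DESeq2 1.42.0, limma 3.58.1 voom with sample weights, other filters, other library sets, a run term, each library left out, and others chosen after seeing the data.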

Additional observations from a re-analysis of the deposited data

Results flagged for a closer look

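In groups of 6 libraries, a library was singled out when its gap to its nearest neighbour took more of the group's range than Dixon's 95% critical value. This met 9 of 98 groups tested, where chance gives about 5%, and 3 of the 9 were sham 1. All 9 were means of gene lists in log2 CPM. The ribosomal and granule cell lists, which chose the libraries, were not among the groups tested. Medium 8 lay apart for deep cerebellar nuclei and brainstem neurons at 7.67, oligodendrocytes and myelin at 8.18, endothelial cells at 5.25 and sterol synthesis at 6.45. Medium 41 lay apart for GABA-A receptors and GABA and glycine transport at 5.97. Sham 1 lay apart for NRF2 and antioxidant genes at 6.24, sterol synthesis at 5.90 and voltage-gated sodium channels at 6.03. Sham 32 lay apart for thyroid hormone transport and response at 5.86.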

How the results depend on the processing

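The count of 0 genes in the cerebellum held with RLE factors, DESeq2, both other filters, all 15 libraries, 4 groups, the run term, the set without libraries over 1 log2 unit from the median of either list, the 9 libraries and the ribosomal mean as a covariate, and it ranged from 0 to 0 when each library was left out. limma-voom called 2 genes, one of them Plpp4 at a log2 fold change of 1.55 (adjusted p = 0.0284), the cause of which was not tested. DESeq2 called 2 genes in the striatum, where edgeR called 0. Without the replicate block for the rat, the edgeR fit of the region interaction again called 0 genes, with 423 at an unadjusted p under 0.05, against 533 with the block; without rat 17 it called 0, with 338. The striatum without rats 8, 41 and 17 and the interaction without rats 1, 8, 17 and 41 gave 0 calls as well; there the Dbp interaction was 0.00, against -0.30 with 12 rats. Library choice moved list medians most: in that set without libraries over 1 log2 unit from the median, 9 of the 34 medians checked moved by more than 1 SD. Depth limits most the genes at a few CPM, among them Plekha4, Parvg, Casq1 and Spata20.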

Other observations

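The remaining cell type lists gave these medians of the log2 fold change, medium over sham, with 12 libraries and then with 9; over all genes tested it was 0.03 and 0.00, and no member passed the adjusted p of 0.05. Purkinje cell genes gave 0.11 and 0.12, with 15 of 23 higher in medium. Pcp2, a Purkinje cell signalling gene, had 310, 367 and 902 CPM as lowest, median and highest medium library, against 314, 373 and 633 CPM in sham libraries, and medium 41 held the highest value. Bergmann glia and astrocyte genes gave 0.17 and 0.03, with 19 of 22 higher. Aqp4, the water channel of astrocyte endfeet, lay between 722 and 1083 CPM in medium libraries and between 699 and 1044 CPM in sham libraries. Inhibitory interneuron genes gave -0.16 and -0.03, and the 4 tested genes of unipolar brush cells gave -0.08 and 0.10. Kit, a receptor gene of molecular layer interneurons, stood at 74.5 CPM in medium 8, 72.8 CPM in medium 41 and 116 CPM in sham 1, below the other medium libraries at 173 to 226 CPM and the other sham libraries at 166 to 222 CPM. Oligodendrocyte precursor genes gave 0.21 and 0.08, pericyte and smooth muscle genes 0.00 and -0.23, choroid plexus genes 0.28 and 0.21, the 3 tested ependymal genes 0.41 and 0.03, forebrain neuron genes 0.10 and 0.01, and cell cycle genes -0.04 and -0.02.

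Among the pathway lists, sterol synthesis genes gave a median of 0.25 with 12 libraries, with 19 of 20 higher in medium, and 0.08 with 9. Hmgcs1, an early enzyme of the pathway, had 145, 210 and 389 CPM as lowest, median and highest medium library, against 167, 181 and 220 CPM in sham libraries, and medium 8 held the highest value. Immediate early genes gave -0.14 and -0.19, with 13 of 18 lower. Fos, which neuronal activity induces, stood at 9.20, 3.87, 58.5, 54.9, 43.4 and 44.9 CPM in medium rats 8, 10, 26, 41, 54 and 57, against 7.55, 55.9, 4.76, 18.3, 78.6 and 73.3 CPM in sham rats 1, 3, 17, 18, 32 and 34. Low and high values occurred in both groups. Genes of GABA receptors and GABA and glycine transport gave 0.08 and 0.14, synaptic vesicle genes -0.05 and 0.03, sodium channels -0.11 and 0.06, potassium channels 0.04 and 0.08, and dopamine and noradrenaline genes 0.22 and 0.04. Glucocorticoid response genes gave 0.11 and 0.11, chaperones 0.11 and 0.05, and the proteasome 0.13 and -0.03. Fkbp5, a glucocorticoid-induced chaperone gene, lay between 23.3 and 29.6 CPM in medium libraries and between 24.4 and 31.3 CPM in sham libraries.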
